A study of Mus musculus with 6 samples.

Results

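The genes described here are the 37 listed neighbours of Onecut2 on mouse chromosome 18, and they were followed in retinas of adult OC2-KO mice and their OC2-WT littermates. Members were found by symbol, and every probe set annotated with 1 of the listed symbols was taken. Onecut2 itself was left out. A probe set is a group of short probes on the array that is read out as 1 value, and 1 gene can have several. Which transcripts the probes of a set match was not checked here. In all, 90 of the 45037 probe sets on the array belonged to 35 of these genes, while Mc4r and Impa2 were not analysed here. Of the 90 probe sets, 63 from 29 genes had a mean log2 intensity above 7 in at least 1 genotype and entered the tests, together with all 21176 probe sets of the array that did so. The other 27 lay under that level, and Atp8b1, Ccbe1, Pmaip1, Cidea, Mc5r and Mc2r were represented by such probe sets alone.

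Each genotype was represented by 3 arrays of total retinal RNA, numbered 1 to 3. OC2-KO mice lack functional Onecut2, a homeodomain transcription factor of the retina, in the germline and so in every tissue, and a substantial share of them die soon after birth, so adult retinas came from the survivors. The OC2-WT mice were littermates. Strain and the number of animals behind each array are not given in the sources used here, so p-values here reflect array-to-array variation. The question put to the data was whether genes lying near Onecut2 on the chromosome differed between genotypes, and whether several probe sets of the same gene gave the same answer.

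The listed genes share a chromosome and not a pathway. Their products include a cargo receptor that carries glycoproteins from the endoplasmic reticulum to the Golgi (Lman1), the enzyme that completes heme synthesis (Fech), the aminoacyl-tRNA synthetase for asparagine (Nars), a homeodomain factor needed to form the eye (Rax), a complexin of photoreceptor and bipolar cell ribbon synapses (Cplx4) and the olfactory G protein alpha subunit (Gnal). Neighbouring genes are often inherited together because crossovers between them are rare. In the gene order of assembly GRCm38.p6, used for order only, 5 members preceded Onecut2 and 32 followed it. The nearest measured neighbours were St8sia3, 2 genes away, Fech, 3 genes away, and Nars, 4 genes away. The farthest were Minar2, 124 genes away on one side, and Myo5b, 145 genes away on the other, and chromosome 18 held 1325 annotated genes.

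Several facts about the arrays bear on all values below. The median intensity of an array ran from 94.9 to 110. Arrays with the same number deviated together from their genotype means (correlations of 0.576, 0.590 and 0.585), so they are treated as pairs below. The labels state no pairing, and what arrays of the same number share is not given. Levels of Xist against Y-linked genes had the male pattern on both arrays of pair 1, the female pattern on both of pair 2, and in pair 3 the female pattern for OC2-WT and the male for OC2-KO. The gap between probe sets at either end of Actb was 2.95 and 3.39 (log2) in pair 3 and 0.715 to 1.41 on the other arrays. Rod markers were abundant on every array (summed log2 level 16.2 to 18.1). Of 4 horizontal cell markers 4 were lower on average in OC2-KO (summed level 13.3 to 13.6 in OC2-WT and 12.6 to 13.0 in OC2-KO), and of 4 markers of reactive glia 4 were higher (9.50 to 9.61 and 11.4 to 12.6). Of 4 microglia markers 4 were higher (10.2 to 10.6 and 10.7 to 11.2), and 3 of 3 lens markers were higher on average (9.58 to 13.8 and 12.2 to 13.8) but not in every pair, with Crygd lower in 2 of 3 pairs. Lhx1 of the horizontal cell markers and Aif1 of the microglia markers had means under 7 in both genotypes. Onecut1 did so in OC2-KO, and Socs3 and Mip, of the reactive glia and lens markers, in OC2-WT. Of 2 bipolar markers measured 2 were lower (13.5 to 13.9 and 13.2 to 13.6), in 3 of 3 pairs each, and of 4 amacrine markers 3 were lower (14.5 to 14.7 and 14.1 to 14.7). In whole retina fewer cells of a type and less RNA per cell cannot be told apart, and the part of these cell types in the values of the listed genes was not tested. The 3 probe sets of Onecut2 were higher in OC2-KO by 2.27 to 2.84 (log2). Per the study these probes read a retained end of the gene, so they do not check the genotype.

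In the listed genes, differences between genotypes were larger and more often free of overlap than in the array as a whole, and they ran in both directions. The list was drawn up with earlier results of these data known, so this excess is no independent evidence. Among the clearest differences were those of a probe set of Minar2, which was 9.48-fold lower in OC2-KO, and the probe set of 1500015A07Rik, 3.67-fold lower. A probe set of Lman1 differed by -3.40 (log2), or by -2.78 with all values under 6 raised to 6, since its OC2-KO arrays lay under the filter level. Alpk2 differed by 2.18, but its OC2-WT mean was under the filter level, and the difference was 1.53 with the floor at 6 and 1.20 without OC2-WT replicate 3. None of the 63 probe sets passed an adjusted p of 0.05 in limma, where the share called over all probe sets was also 0%, and the lowest adjusted p among them was 0.244. With the pair numbers as a block and a variance trend in limma, 2 of the 63 passed (Minar2 1437528_x_at and Lman1 1444037_at) beside a background of 0.0283%, which is 6 probe sets of 21176.

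At an unadjusted p of 0.05 in limma, 6 of the 63 were lower in OC2-KO, or 9.52%, against 0.326% of all probe sets. Another 4 were higher, or 6.35%, against 0.661%. The count of higher probe sets was 0 without OC2-KO replicate 1 (0.727% of all) or without OC2-KO replicate 2 (1.22%), and 2 without the filter (1.55%). The methods' t-test gave 7 lower and 4 higher, against 0.604% and 0.812%, and 0 after Benjamini-Hochberg adjustment. With the pair block the counts were 11 lower and 7 higher, against backgrounds of 2.1% and 2.09%, and 0 passed adjustment in limma (lowest adjusted p 0.0648). On 9 of the 63 probe sets every OC2-KO array lay below every OC2-WT array, or 14.3%, against 1.56% of all probe sets. On 5 every OC2-KO array lay above, or 7.94%, against 1.72%. These 14 probe sets came from 13 genes, and Lman1 had one of each kind.

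Part of these counts rests on the filter, since 9 of the 63 probe sets passed it through 1 genotype alone. Those 9 held 5 of the 14 probe sets without overlap (Alpk2, Grp and the dim probe sets of Lman1, Tubb6 and Ptpn2), 3 of the 6 lower and 1 of the 4 higher. With a filter on the mean over all 6 arrays, chosen after seeing the data, 60 probe sets of 27 genes entered. Of these, 6 (10%) lay below every OC2-WT array and 5 (8.33%) above, against 1.43% and 1.55% of all probe sets past that filter, and limma gave 4 lower and 4 higher at an unadjusted p of 0.05, against 0.227% and 0.533%.

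By sign alone the listed genes were evenly divided, with 33 probe sets lower and 30 higher. Their median log2 difference was -0.0053, beside -0.0084 over all probe sets tested. The median within pairs 1, 2 and 3 was -0.12, 0.045 and -0.0020. In size the values were larger than over the array. The median of the absolute log2 difference was 0.258, beside 0.132 over all, and 7 of the 63 (11.1%) differed by more than 1 on the log2 scale, beside 1.20% of all. Lman1, Minar2, 1500015A07Rik, Grp and Ptpn2 were already known from earlier results of these data to be lower, and their place on the list is no independent evidence. Without those 5 genes, 50 probe sets of 24 genes remained, of which 1 (2%) was lower and 4 (8%) were higher at an unadjusted p of 0.05 in limma, so that 5 of the 6 lower calls came from the genes already known. Of the 50, 4 (8%) lay below every OC2-WT array and 4 (8%) above, 3 (6%) differed by more than 1, and the median absolute difference was 0.202. The other 24 genes were also listed with earlier results known, so these shares are no independent evidence either.

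**Figure D1:**
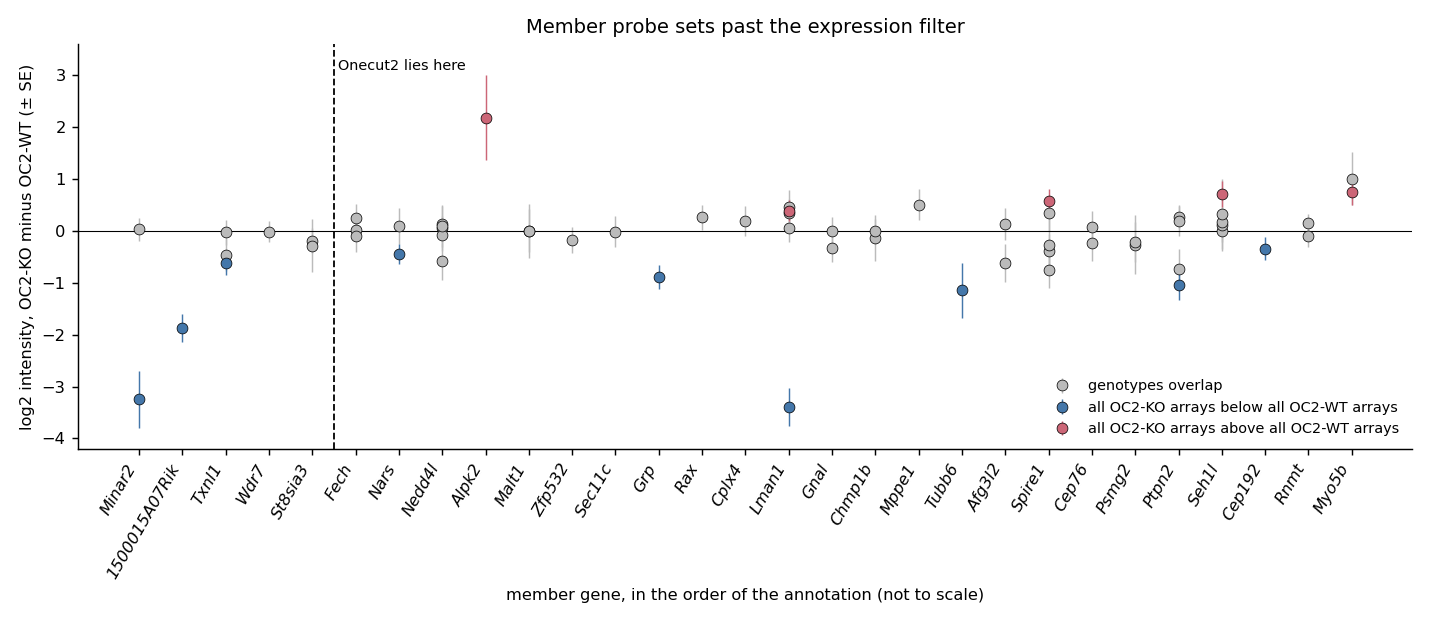
Log2 intensity of OC2-KO minus OC2-WT, with standard error, for the 63 probe sets past the filter, with genes in annotated order along the horizontal axis and a dashed line where Onecut2 lies. Blue points (9) had every OC2-KO array below every OC2-WT array and red points (5) had them above. The low points of Minar2 and Lman1 near -3.2 and -3.4 stand beside other points of the same genes at 0.03 to 0.46.

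Of the 2 little-studied genes, both preceded Onecut2. Minar2, named for its association with the NOTCH2 receptor, had 2 probe sets past the filter, and they did not give the same answer. On 1437528_x_at, OC2-WT arrays 1 to 3 read 11.33, 10.41 and 12.12, and OC2-KO arrays 1 to 3 read 7.37, 7.79 and 8.97 (log2 intensity). The genotypes did not overlap, and the gap between the lowest OC2-WT and the highest OC2-KO array was wider than the SD within either genotype. The difference was -3.24 ± 0.55 (SE, n = 3 per genotype; limma adjusted p 1.00, 0.00312 with block and trend, and 0.00312 to 1.00 over the alternatives). On 1433577_at the same arrays read 10.52, 10.64 and 10.68 in OC2-WT against 10.37, 10.80 and 10.76 in OC2-KO. Here the genotypes overlapped and the difference was 0.03 ± 0.22. A further probe set of Minar2 lay below the filter, with a difference of -0.33.

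1500015A07Rik is a transcript known by its RIKEN clone name. Its only probe set read 8.78, 8.91 and 9.03 in OC2-WT against 7.34, 7.24 and 6.51 in OC2-KO. All OC2-KO arrays were lower by more than the spread within either genotype, with the lowest value in pair 3. The OC2-KO mean of 7.03 was near the filter level of 7, and OC2-KO array 3 lay under it. The difference was -1.87 ± 0.27 (limma adjusted p 0.678, 0.136 with block and trend). Leaving out pair 3, in which sex was not matched, it was -1.55.

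Among the 4 listed genes of the secretory pathway, 9 probe sets passed the filter, 4 lower and 5 higher, and 5 of the 9 were of Lman1. On Lman1 1444037_at, OC2-WT arrays read 8.04, 9.20 and 9.11, and OC2-KO arrays read 4.97, 5.73 and 5.46. The lowest OC2-WT array was well above the highest OC2-KO array, and the OC2-KO arrays lay under the filter level of 7. The difference was -3.40 ± 0.37 (limma adjusted p 0.244, 0.0156 with block and trend, and 0.0156 to 1.00 over the alternatives). With sex as a term it was -3.12, and without pair 3 it was -3.27.

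The other 4 probe sets of Lman1 leaned the opposite way. On 1452671_s_at, the brightest, OC2-WT arrays read 11.85, 11.96 and 12.04 and OC2-KO arrays 12.29, 12.27 and 12.47, a difference of 0.39 ± 0.20. The genotypes did not overlap on it. On 1428130_at, also bright, OC2-WT read 11.29, 11.11 and 11.50 and OC2-KO 11.41, 10.92 and 11.71, and the difference was 0.05 ± 0.27. On 1419951_at, OC2-WT read 7.78, 7.34 and 7.80 and OC2-KO 8.09, 7.60 and 8.27, and on 1428129_at they read 8.07, 8.14 and 7.28 and 8.78, 8.15 and 7.93. Those differences were 0.34 ± 0.26 and 0.46 ± 0.34, with overlapping genotypes. The intensities of different probe sets depend on their probes and were not compared as amounts of transcript.

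The rest of that group differed little. St8sia3, a sialyltransferase of nerve cells, was 0.19 and 0.28 lower on its 2 probe sets, within the overlap of the genotypes, though it lies only 2 genes from Onecut2. Sec11c, a catalytic subunit of the signal peptidase, differed by -0.01. Mppe1, which remodels the lipid anchors of cell surface proteins, differed by 0.50, with overlapping genotypes.

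**Figure D2:**
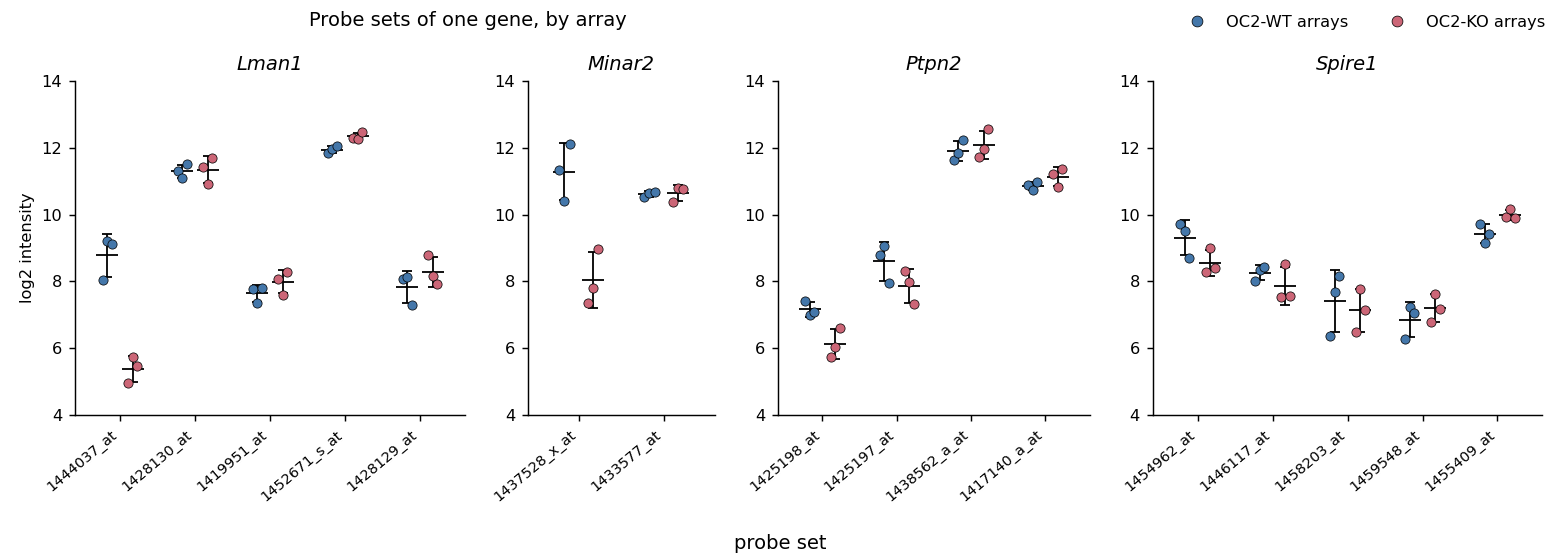
Log2 intensity on each array (points, left to right arrays 1 to 3) with mean and SD for every probe set past the filter of Lman1, Minar2, Ptpn2 and Spire1, OC2-WT in blue and OC2-KO in red. In Lman1 and Minar2 a lone probe set differed by -3.40 and -3.24 between genotypes, while the others of the gene differed by 0.03 to 0.46.

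Of the 4 genes of protein quality control, mitochondria and heme, 10 probe sets passed the filter, 7 lower and 3 higher, with a median difference of -0.16. Txnl1, a thioredoxin-like protein of the proteasome, lies 12 genes from Onecut2. On Txnl1 1435235_at, OC2-WT arrays read 10.90, 10.91 and 11.03 and OC2-KO arrays 9.997, 10.34 and 10.64. The genotypes did not overlap, and the difference was -0.62 ± 0.23 (limma adjusted p 1.00). The other probe sets of Txnl1 were 1423299_at, which read 11.43, 11.09 and 10.74 in OC2-WT against 10.33, 11.11 and 10.42 in OC2-KO, and the brightest, 1436947_a_at, which read 12.36, 12.31 and 12.69 and 12.21, 12.30 and 12.76. On both the genotypes overlapped, and the differences were -0.47 and -0.03. Fech differed by -0.10 to 0.25 over 3 probe sets. Psmg2, a chaperone of proteasome assembly, was lower by 0.21 and 0.27, and Afg3l2, a protease of the mitochondrial inner membrane, differed by -0.62 and 0.13, all with overlapping genotypes.

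Of the 3 genes of translation, RNA capping and the nuclear pore, 9 probe sets passed the filter, 2 lower and 7 higher. Nars, 4 genes from Onecut2, read 11.91, 11.99 and 11.85 in OC2-WT against 11.41, 11.63 and 11.38 in OC2-KO on 1452866_at. Every OC2-KO array was lower, by little but more than the SD within either genotype, with a difference of -0.44 ± 0.20. On its other probe set the difference was 0.08 and the genotypes overlapped. Seh1l, a nucleoporin, had 5 probe sets past the filter, 5 of 5 higher in sign. On Seh1l 1419967_at, OC2-WT arrays read 7.13, 7.42 and 7.43 and OC2-KO arrays 8.39, 8.06 and 7.68, without overlap and 0.71 ± 0.25 higher (limma adjusted p 1.00). The other Seh1l probe sets overlapped. The dim 1420386_at read 7.62, 7.62 and 6.61 in OC2-WT against 7.89, 6.81 and 7.15 in OC2-KO. On 1424199_at they read 10.02, 9.65 and 9.09 against 10.11, 9.83 and 9.19, and on the brightest, 1424200_s_at, 10.63, 10.52 and 10.28 against 10.53, 10.87 and 10.56. On 1424201_a_at, OC2-WT scattered from 5.60 to 8.50 and OC2-KO read 7.29, 7.72 and 6.89. Their differences ran from 0.0017 to 0.33. Rnmt, the methyltransferase of the mRNA cap, differed by -0.09 and 0.14.

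Of the 5 listed genes of kinases, phosphatases, ubiquitin and immune signalling, 4 had probe sets past the filter, 5 lower and 7 higher in sign. Alpk2, an alpha kinase best known from heart, lies 16 genes from Onecut2. Its only probe set read 6.49, 7.51 and 4.05 in OC2-WT against 7.92, 8.79 and 7.87 in OC2-KO. All OC2-KO arrays were above all OC2-WT arrays, but the low OC2-WT array 3 made the OC2-WT spread wide (SD 1.78). The difference was 2.18 ± 0.82 (limma adjusted p 1.00) and came to 1.20 when OC2-WT replicate 3 was left out, or 1.36 with the whole of pair 3 left out.

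Ptpn2 encodes a phosphatase that dampens cytokine signalling through JAK and STAT proteins, and its 4 probe sets were divided. On Ptpn2 1425198_at, OC2-WT read 7.42, 7.002 and 7.08 and OC2-KO 5.73, 6.04 and 6.61, without overlap and with a difference of -1.04 ± 0.28 (limma adjusted p 1.00). All 3 OC2-KO arrays were under the filter level of 7, and the probe set passed through OC2-WT alone. On 1425197_at, OC2-WT read 8.79, 9.07 and 7.94 and OC2-KO 8.30, 7.98 and 7.31, with overlap and a difference of -0.74 ± 0.38. The bright probe sets were on the other side of 0. On 1438562_a_at, OC2-WT read 11.62, 11.85 and 12.23 and OC2-KO 11.73, 11.97 and 12.55, and on 1417140_a_at they read 10.89, 10.74 and 10.98 and 11.22, 10.82 and 11.37. The differences were 0.18 ± 0.29 and 0.27 ± 0.23. Nedd4l, a ubiquitin ligase acting on sodium channels, differed by -0.59 to 0.13 over 5 probe sets, and Malt1, the paracaspase of NF-kB signalling, by -0.0074 and 0.0016 over 2.

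Of the 4 genes of vesicles, synapse and membrane remodelling, 6 probe sets passed the filter, 3 lower and 3 higher. Of these, Myo5b, a motor of recycling vesicles, alone had a probe set free of overlap. On Myo5b 1452298_a_at, OC2-WT read 8.66, 8.55 and 9.04 and OC2-KO 9.56, 9.74 and 9.18, a difference of 0.75 ± 0.25 (limma adjusted p 1.00). The smallest gap was in pair 3, and without that pair the difference was 1.05. On its dimmer 1437698_at, OC2-WT read 5.60, 7.71 and 7.06 and OC2-KO 7.71, 8.07 and 7.62, with overlap and a difference of 1.01 ± 0.51. Wdr7, a partner of the vesicular proton pump 9 genes from Onecut2, differed by -0.01, Cplx4 by 0.19 and Chmp1b, an ESCRT-III subunit, by -0.14 and -0.0053.

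Of the 4 genes of cytoskeleton and centrosome, 9 probe sets passed the filter, 6 lower and 3 higher. Spire1, an actin nucleator, had 5 probe sets on both sides of 0. On Spire1 1455409_at, OC2-WT read 9.72, 9.15 and 9.41 and OC2-KO 9.92, 10.16 and 9.90, without overlap and 0.57 ± 0.23 higher. On 1454962_at, OC2-WT read 9.73, 9.50 and 8.72 and OC2-KO 8.27, 8.996 and 8.40, with overlap and a difference of -0.76 ± 0.34. The other 3 overlapped. On 1446117_at, OC2-WT read 8.01, 8.34 and 8.44 and OC2-KO 7.53, 8.53 and 7.57. On 1458203_at they read 6.37, 7.68 and 8.16 against 6.50, 7.77 and 7.14, and on 1459548_at 6.28, 7.25 and 7.05 against 6.79, 7.63 and 7.16. Those differences were -0.39, -0.27 and 0.33.

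Tubb6, a beta tubulin, read 6.87, 7.22 and 7.14 in OC2-WT against 4.61, 6.53 and 6.65 in OC2-KO on 1446353_at. The genotypes did not overlap, but most of the difference of -1.15 ± 0.53 lay in OC2-KO replicate 1, and without it the difference was -0.49. Cep192, a scaffold of centrosome maturation, read 7.84, 7.99 and 8.37 in OC2-WT against 7.71, 7.82 and 7.65 in OC2-KO, without overlap and with a difference of -0.35 ± 0.22. Cep76 differed by -0.24 and 0.08.

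In the remaining groups only Grp, gastrin-releasing peptide, was free of overlap. It read 7.46, 7.59 and 7.14 in OC2-WT against 6.49, 6.67 and 6.36 in OC2-KO, so every OC2-KO array was under the filter level of 7. The difference was -0.89 ± 0.22 (limma adjusted p 1.00) and was of like size in each pair. Rax differed by 0.26, Zfp532, a zinc finger protein, by -0.17, and Gnal by -0.33 and -0.0044, all with overlapping genotypes. None of the 3 listed genes of membrane lipids and lipid droplets entered the tests.

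**Figure D3:**
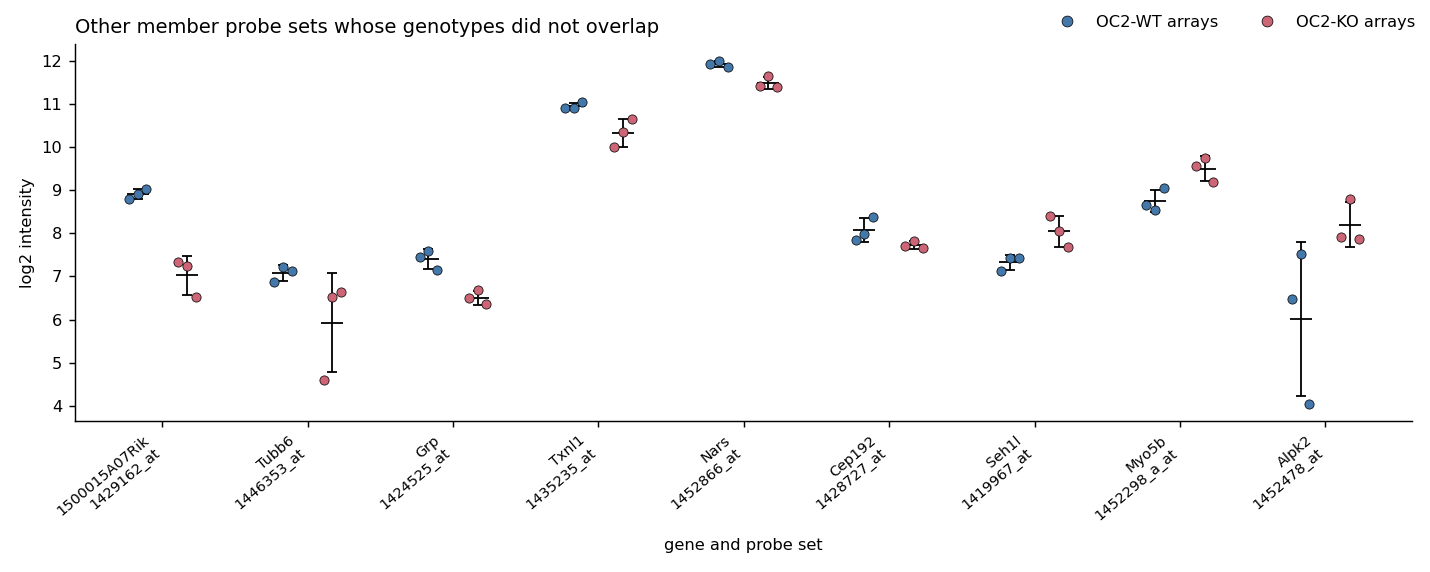
Log2 intensity on each array (points, left to right arrays 1 to 3) with mean and SD for the 9 probe sets without overlap that belong to genes other than Lman1, Minar2, Ptpn2 and Spire1, OC2-WT in blue and OC2-KO in red. The low OC2-WT array 3 of Alpk2 (4.05) and the low OC2-KO array 1 of Tubb6 (4.61) carry much of those differences.

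Among the 27 probe sets below the filter, which were not tested, 4 were free of overlap, or 1 lower and 3 higher, where 6.4% of all probe sets below the filter were. Tubb6 1416431_at read 6.18, 2.90 and 0.90 in OC2-WT against 6.39, 7.04 and 6.61 in OC2-KO, higher by 3.35 and so opposite to the tested probe set of Tubb6. Malt1 1445068_at was higher by 2.00 and Myo5b 1441104_at by 1.40, the latter on the same side as the tested Myo5b probe sets. Cep192 1440081_at was lower by 1.03, as was the tested one by less. These values are given as a description.

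Agreement among probe sets of the same gene was then measured directly. Of the 29 genes tested, 18 had at least 2 probe sets past the filter. In 7 of these the signs were alike (5 lower, 2 higher) and in 11 they were mixed. The share of mixed signs over all genes of the array was not computed, so these counts only describe the listed genes. The span between the highest and the lowest difference of a gene was 3.85 in Lman1 and 3.27 in Minar2, which ranked 1 and 2 among the 4761 genes of the array with at least 2 probe sets. Spire1 (1.33) and Ptpn2 (1.31) ranked 57 and 60. The span exceeded 1 in 4 of the 18 genes (22.2%), beside 2.69% of all, and its median was 0.439 beside 0.226. Apart from Spire1, those 4 were already known from earlier results of these data to be lower. Their spans and ranks are therefore no independent evidence. Lman1 1444037_at and Ptpn2 1425198_at also passed the filter through OC2-WT alone.

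The deviation of each probe set from the mean of the gene's other probe sets was also computed on every array, which removes whatever the probe sets of a gene share. For Lman1 1444037_at it was -1.71, -0.44 and -0.55 in OC2-WT against -5.17, -4.00 and -4.63 in OC2-KO. The shift of -3.70 ± 0.46 had the smallest limma p of the 12409 probe sets tested in this way (adjusted p 0.677, 0.0581 with the pair block, 0.0458 with block and trend). The OC2-KO arrays of this probe set lay under the filter level, and with the floor at 6 the shift was -3.09. For Minar2 1437528_x_at the deviation was 0.81, -0.23 and 1.43 in OC2-WT, whereas the OC2-KO arrays stood at -3.00, -3.00 and -1.80. The shift was -3.27 ± 0.52 (limma adjusted p 1.00, 0.0181 with block and trend). With only 2 probe sets in Minar2 the test of the other one is the same test with its sign turned. For the same reason the 4 other probe sets of Lman1, measured against a mean that holds 1444037_at, deviated upward without overlap.

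Over the listed genes, 52 probe sets had such a deviation. None passed adjustment in limma, where the background was 0%, and 8 had an unadjusted p under 0.05 (3 lower, 5 higher) against 0.588% of all. All 8 were probe sets of Lman1, Minar2 and Ptpn2. Those genes were already known from earlier results of these data to be lower, so this excess is no independent evidence. With the pair block 16 had an unadjusted p under 0.05 in limma, against 3.24%. With block and trend 3 passed adjustment, the probe set of Lman1 and both of Minar2, against 0.0242%, and these were the only 3 of the array. Genotypes were free of overlap for 12 of the 52 (5 lower, 7 higher) against 2.51%, and since probe sets of 1 gene enter each other's reference these are not independent.

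**Figure D4:**
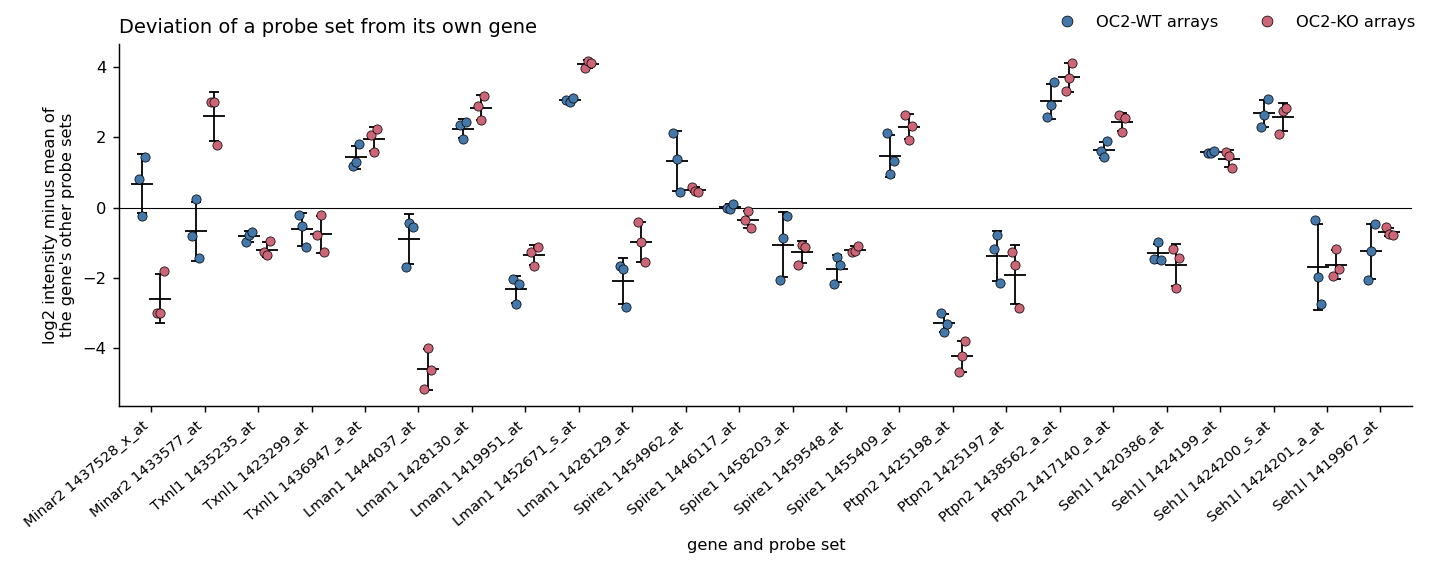
Deviation of each probe set from the mean of its gene's other probe sets (log2 intensity), by array (points, left to right arrays 1 to 3) with mean and SD, for Minar2, Txnl1, Lman1, Spire1, Ptpn2 and Seh1l, OC2-WT in blue and OC2-KO in red. Lman1 1444037_at and Minar2 1437528_x_at shift between genotypes by -3.70 and -3.27, and on all probe sets of Seh1l and Txnl1 the genotypes overlap.

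Position relative to Onecut2 was then compared. Before Onecut2, 8 of the 9 probe sets, from only 5 genes, were lower in sign, against 10990 of 21176 over all probe sets. On that side 3 lay below every OC2-WT array (1.56% of all) and the median difference was -0.28. Of those 3, Minar2 and 1500015A07Rik were already known to be lower. After it, 25 of 54 were lower, 6 lay below and 5 above every OC2-WT array (1.56% and 1.72% of all) and the median was 0.0094. Of the tested members nearest to Onecut2, genotypes overlapped on every probe set of St8sia3, Fech and Wdr7 and were apart on a probe set of Nars, and the farthest members, Minar2 and Myo5b, each had a probe set free of overlap.

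Genes of the chromosome that were not on the list gave a comparison. Over 493 probe sets of 259 such genes, 17 (3.45%) lay below every OC2-WT array, 9 (1.83%) above, and 4 (0.811%) differed by more than 1 in size. Within 50 genes of Onecut2, 13 probe sets of 7 unlisted genes passed the filter and 0 reached an unadjusted p of 0.05 in limma. All 13 lie before Onecut2, so within 50 genes the side after it, with most listed genes, has no such comparison. By sign 5 of the 13 were lower and 8 higher, and their median difference was 0.022. One lay below every OC2-WT array, of Pcyox1l (-0.55 ± 0.24), and another above, of Fbxo38 (0.40 ± 0.22). The other 11 overlapped. Ablim3 differed by 0.41 on its probe set, Apcdd1 by -0.32 to 0.03 over 4 probe sets and Napg by -0.34 to 0.02 over 3, and the rest belonged to Grpel2 (0.22 and 0.06) and Afap1l1 (-0.34). Within 100 genes, on both sides of Onecut2, 53 probe sets of 26 unlisted genes passed the filter. Of these, 0 reached an unadjusted p of 0.05 in limma, 3 (5.66%) lay below every OC2-WT array and 1 (1.89%) above. Within 25 genes there were 7 probe sets of 2 unlisted genes, and 0 reached that p. The listed genes were chosen with such results known, so these shares are set side by side without a test.

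**Figure D5:**
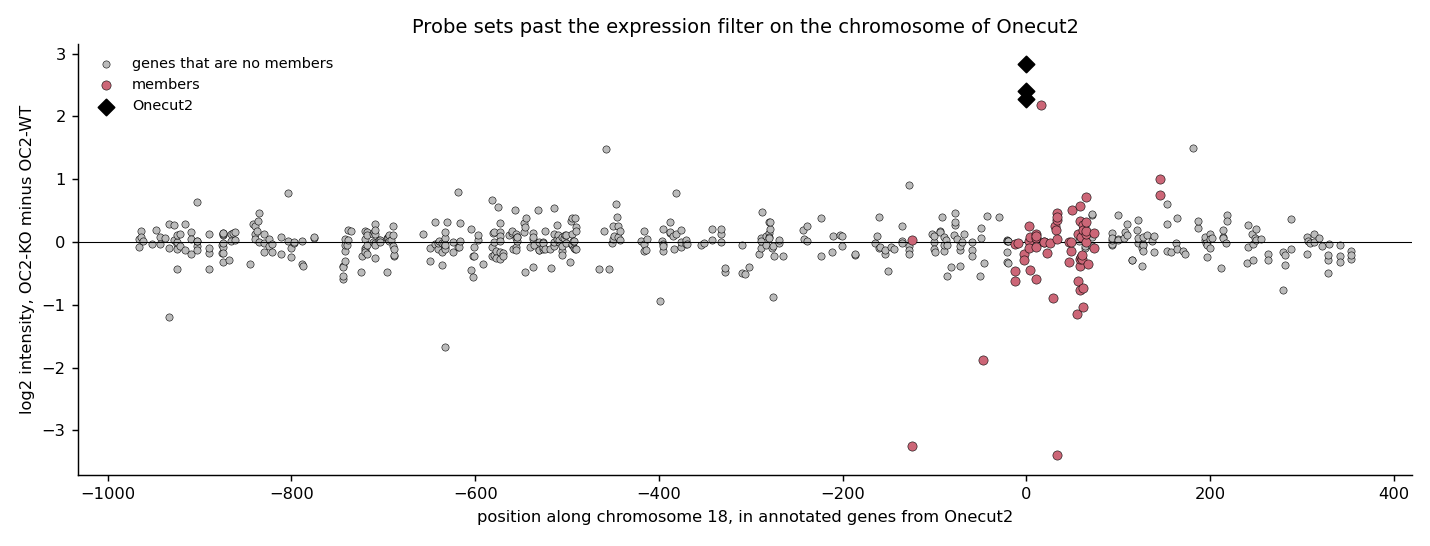
Log2 intensity of OC2-KO minus OC2-WT for each probe set past the filter on chromosome 18, against position counted in annotated genes from Onecut2, with listed genes in red, other genes in grey and Onecut2 as black diamonds. Listed genes hold the lowest points, Lman1 (-3.40) and Minar2 (-3.24), on opposite sides of Onecut2, whose own 3 probe sets lie between 2.27 and 2.84.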

How the data were processed

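Total RNA of 6 adult retina samples, 3 OC2-WT and 3 OC2-KO, was amplified, biotin-labelled and hybridised to Affymetrix mouse genome arrays. The deposited values were linear intensities, 1 per probe set and array, which the authors had background-adjusted and normalized with MAS5 (version not given in the sources used here) with the 2% trimmed mean set to 500 per array, which hides any difference common to all genes. The precision is limited by 3 arrays per genotype. Of 45101 probe sets, 64 controls were left out. The platform annotation gave 1 symbol to 34945, several to 932 and none to 9160, and 2 probe sets naming Chmp1b beside another gene were not used. Gene order came from the GRCm38.p6 gene table, and since no build is named for the platform annotation no coordinates are printed. For the same reason, and because no sequence of this chromosome is reported here, no probe, promoter or protein sequence is shown.

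After log2 transformation, probe sets with a genotype mean above 7 in OC2-WT or OC2-KO were retained, following the study's filter (21176, of which 18713 had 1 symbol). OC2-KO minus OC2-WT was tested two-sided in limma 3.58.1 (lmFit, eBayes; R 4.3.3) on all 6 arrays, leaving 4 residual degrees of freedom. Benjamini-Hochberg adjustment ran over all retained probe sets, with a threshold of 0.05. The methods' t-test was run on the same values. Arrays of opposite genotype with the same number correlated at 0.576 to 0.590 in their deviations from genotype means, and those with different numbers at -0.429 to -0.135, so a fit with the replicate block (2 residual degrees of freedom) was made, also with a variance trend. Within-gene deviations were tested the same way over 12409 probe sets of 4761 genes. Scripts were tested on simulated data. Arrays were named in full for probe sets whose genotypes did not overlap and differed by 0.5 or more, and for the other probe sets of those genes. Nars and Cep192, whose smaller differences also did not overlap, were added after their values were seen. The genes and lists were chosen with earlier results of these data known.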

Additional observations from a re-analysis of the deposited data

How the results depend on the processing

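In 19 alternatives for the 11 probe sets without overlap and with differences of 0.5 or more, and 20 for the deviations of Lman1 and Minar2 (the brightest other probe set as reference was the further one), 243 of 243 values kept their direction, and 4 passed adjustment, all in the fit with block and trend. The kept direction was largely fixed in advance. Where genotypes do not overlap, leaving out arrays cannot reverse the sign, and the block, trend and t-test settings leave the difference as it was. Grp, Tubb6 and Ptpn2 1425198_at had no value with the filter at 8 or on the mean of all arrays, the latter chosen after seeing the data. Lman1 1444037_at ran from -3.77 to -2.78 and Minar2 1437528_x_at from -3.71 to -2.64. Of the listed probe sets, 6 lower and 4 higher at an unadjusted p of 0.05 in limma (0.326% and 0.661% of all probe sets) became 10 lower with array weights (0.949% of all), 2 higher without the filter (1.55%), 11 lower and 7 higher with the replicate block that pairs arrays by number (2.1% and 2.09%), and 12 lower and 7 higher with block and trend (1.76% and 1.92%), where 2 passed adjustment. The count of within-gene deviations, 8 (0.588% of all), became 13 with array weights (1.64%), 16 with the replicate block (3.24%) and 16 with block and trend (2.75%), where 3 passed adjustment. Leaving out 1 array at a time, the count of higher probe sets ran from 0 to 3, against 0.662% to 1.22% of all. It was 0 without OC2-KO replicate 1 or OC2-KO replicate 2. It was 2 without OC2-WT replicate 1, OC2-WT replicate 2 or OC2-KO replicate 3. The count of lower probe sets ran from 5 to 9 (without OC2-KO replicate 2), against 0.236% to 1.4% of all. The count of deviations ran from 5 (without OC2-KO replicate 1) to 10 (without OC2-WT replicate 3), against 0.619% to 1.85% of all. Alpk2 ran from 1.20 without OC2-WT replicate 3 to 2.92 and was 1.28 with array weights, and Tubb6 ran from -1.51 to -0.49 without OC2-KO replicate 1 and was -0.68 with a floor of 6 on the log2 scale. The cause of these shifts was not tested. Probe sets near or under a log2 intensity of 7 lie at or under the filter level. That limits Grp, Tubb6, Alpk2, Ptpn2 1425198_at and the OC2-KO values of 1500015A07Rik and Lman1 1444037_at.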
